A study of Caenorhabditis elegans with 2 samples.

Results

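Cytosolic ribosomal protein genes were taken as the protein-coding genes whose names begin with rpl-, rps- or rla- in the Ensembl annotation. There were 81 of them among 19973 protein-coding genes on the nuclear chromosomes, 50 for the large subunit (rla genes included) and 31 for the small subunit. They were spread over the 6 nuclear chromosomes, with 25 on chromosome I, 10 on II, 18 on III, 18 on IV, 8 on V and 2 on X. The data are ChIP-seq of CEH-58, a homeodomain protein of Caenorhabditis elegans, from whole worms of strain OP808, in 1 group of 2 biological replicates. The worms were young adults, aged 65 hours per the labels, synchronised by bleaching and L1 starvation. They carried wgIs808, a fosmid transgene with ceh-58 fused to TY1, EGFP and 3xFLAG tags together with unc-119(+), in the unc-119 (tm4063) mutant. Chromatin was sonicated and precipitated with an anti-GFP antibody. Both replicates share all of this, there was no second condition, and data of the controls were not analysed here. The labelled genotype names no change at the ceh-58 locus itself, and the chromatin of all tissues was mixed.

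The cytosolic ribosome is built from a large and a small subunit, each of ribosomal RNA and many proteins. The rpl genes encode proteins of the large subunit, the rla genes the proteins of its acidic stalk, and the rps genes proteins of the small subunit. Most are short genes that are transcribed strongly in growing cells, and several hold genes of small nucleolar RNAs (snoRNAs), which guide chemical modification of ribosomal RNA, in their introns.

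The authors deposited candidate peaks ranked by the irreproducible discovery rate (IDR), and shorter thresholded lists. The list that compared the replicates held 105945 candidates, and the conservative list held 483 peaks, called listed peaks below. A second thresholded list of the series, called the optimal list here, held 732 peaks, and the own lists of replicates 1 and 2 held 156 and 92. Each peak has a signal, the authors' own value, in a unit not named, and an IDR score of at most 1000, which was 830 or more for every listed peak. The median signal was 72.4 for listed peaks and 22.0 for candidates. Read depth per library is unknown, so signals of the replicates are given without scaling. With 1 group no test over samples was possible, and genes are not replicates, so counts and medians stand beside those of all or of the other protein-coding genes.

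Listed peaks lay just past the ends of 17 ribosomal protein genes and at the starts of 5. A listed peak had its summit within 1000 bp past the annotated end of 17 members (21.0%), against 1.17% of all protein-coding genes. The promoter window, from 1000 bp before to 200 bp after any transcript start, held a listed peak at 5 members (6.17%), against 0.801% of all genes. A listed peak lay in the gene body of 5 members, against 1.29% of all genes. With the 3 places together, 22 members (27.2%) had a listed peak, against 2.85% of all genes. These members accounted for 25 of the 483 listed peaks (5.18%). The downstream window was added after the positions of the peaks had been seen, and so were the genes named for it. Whether peaks stand at these gene ends in control libraries was not tested.

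**Figure D1:**
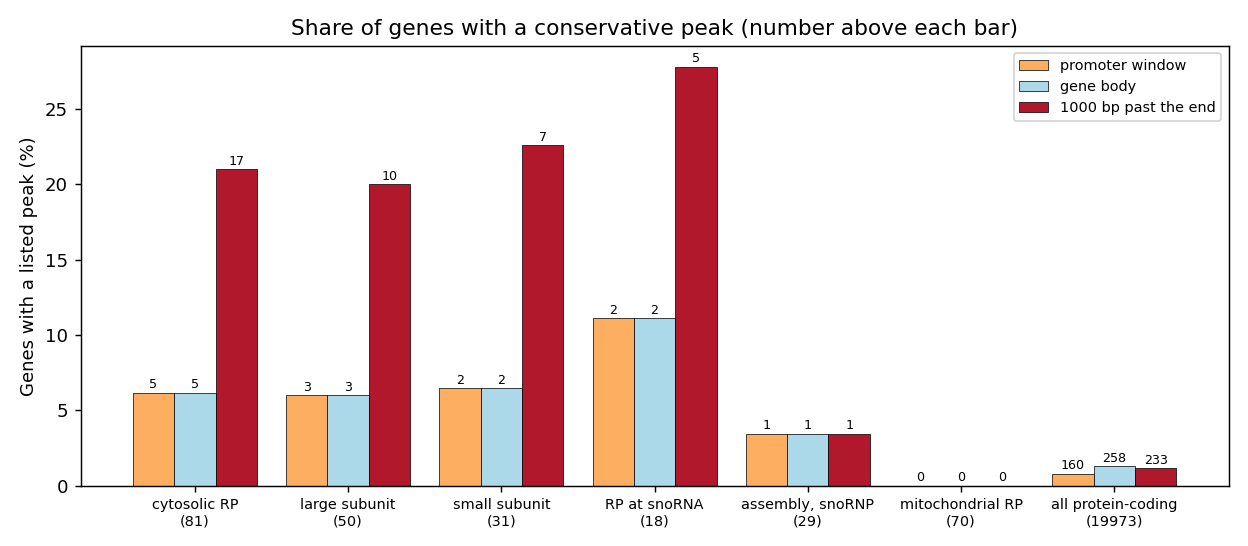
Share of genes with a listed (conservative) peak in the promoter window, in the gene body and within 1000 bp past the gene end, in percent of each gene set, with the number of genes above each bar and the size of the set under its name. The downstream bar of the cytosolic ribosomal protein genes stands at 21.0%, against 1.17% for all protein-coding genes.

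At gene starts, 3 members had a listed peak upstream and 2 had it inside their own exons. Upstream, rpl-3, which encodes a protein near the peptidyl transferase centre, had the highest signal of any member. Its summit lay 275 bp before the nearest start (chrIII:3867461-3867696 for the peak), with a signal of 146.1 for both replicates together. The signal was 92.8 in the own list of replicate 1 and 52.2 in that of replicate 2. For rps-24, a small-subunit protein gene, the summit lay 334 bp upstream, with a signal of 101.0, and with 68.3 and 31.9 in replicates 1 and 2. For rpl-15, a large-subunit protein gene, it lay 378 bp upstream, with a signal of 97.1, and with 55.0 and 41.9. The summit of rpl-15 also lay in the promoter window of K11H12.8, further from that gene's start. All 3 had the highest IDR score, 1000, and in all 3 replicate 1 was the higher.

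The 2 exonic peaks lay at rla-1, the gene of an acidic stalk protein, and at rps-16, a small-subunit gene. In rla-1 the summit was 74 bp past the start, with a signal of 100.1, and with 50.6 and 56.7 in replicates 1 and 2. In rps-16 it was 58 bp past the start, with a signal of 87.5, and with 48.6 and 42.3. Here the replicates lay closer together than at the 3 upstream peaks, and replicate 2 was the higher at rla-1.

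The optimal list added 2 members at gene starts, rpl-35 and rpl-20, which made 7 members against 1.18% of all genes. For rpl-35 the summit lay 470 bp upstream with a signal of 75.2, but its IDR score in the list that compared the replicates was 488. Replicate 1 had a candidate of 62.5 there and replicate 2 had none in its own list. For rpl-20 it lay 289 bp upstream with 66.9, and the IDR score in the list that compared the replicates was 733. The summit of rpl-20 also lay in the promoter window of Y17G9B.5 and was closer to that gene's start. In the optimal list itself every peak had an IDR score of 830 or more. The own list of replicate 1 had a thresholded peak at 4 members, rpl-3, rps-24, rla-1 and rpl-35, against 0.265% of all genes. That of replicate 2 had such a peak at 2 members, rpl-3 and rla-1, against 0.12%. Just outside the conservative list was rpl-16, with an exonic summit 119 bp past its start, a signal of 48.3 and an IDR score of 803.

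The sequence at the upstream summits is shown because several of these summits share short words. Each stretch is 101 bases centred on the summit, read from the RefSeq genome of WBcel235 (ce11) in the direction of the gene, 5′ to 3′. Capitals mark the word AGTGTA with its reverse complement TACACT, the word CGAGTG with its reverse complement CACTCG, and the word GTGTGC with its reverse complement GCACAC.
rpl-3: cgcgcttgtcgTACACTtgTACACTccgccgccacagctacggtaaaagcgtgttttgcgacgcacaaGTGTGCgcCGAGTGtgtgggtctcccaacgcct
rpl-15: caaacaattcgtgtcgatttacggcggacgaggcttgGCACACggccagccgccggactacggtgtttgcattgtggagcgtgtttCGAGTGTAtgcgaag
rps-24: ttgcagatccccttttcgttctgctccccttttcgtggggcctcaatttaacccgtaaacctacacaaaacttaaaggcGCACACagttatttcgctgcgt
rpl-35: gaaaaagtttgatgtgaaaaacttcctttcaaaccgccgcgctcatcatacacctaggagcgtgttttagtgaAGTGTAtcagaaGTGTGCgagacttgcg
rpl-20: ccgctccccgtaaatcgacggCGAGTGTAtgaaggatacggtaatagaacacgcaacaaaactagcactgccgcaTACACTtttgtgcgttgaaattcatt
The stretches are chrIII:3867529-3867629 on the plus strand for rpl-3, chrIV:654904-655004 on the minus strand for rpl-15 and chrIV:385503-385603 on the plus strand for rps-24. Those of the peaks listed only in the optimal list are chrIII:7854614-7854714 on the plus strand for rpl-35 and chrIV:4750017-4750117 on the minus strand for rpl-20. No annotated exon overlaps these 5 stretches.

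The 3 words were picked after these sequences had been read, and were searched on both strands within 100 bp of a summit. CGAGTG and AGTGTA can overlap by AGTG, as in the stretches of rpl-15 and rpl-20, where 1 place counts for both words. The word AGTGTA was present at 4 of the 7 promoter peaks of members in the conservative or optimal list, those of rpl-3, rpl-15, rpl-35 and rpl-20. It was present at 7.06% of all candidates and at 5.59% of all listed peaks. GTGTGC was present at 4 of the 7, those of rpl-3, rps-24, rpl-15 and rpl-35, against 6.87% of candidates and 11.6% of listed peaks. CGAGTG was present at 3 of the 7, against 4.60% of candidates and 10.1% of listed peaks. Neither exonic peak, at rla-1 or rps-16, held any of the 3. Among the highest promoter candidates of all members, listed or not, AGTGTA was present at 6 of 71 (8.45%), near the share of candidates. GTGTGC was present at 15 of the 71 (21.1%) and CGAGTG at 10 (14.1%), both above their shares of candidates. The 71 include the 7 peaks above, so they are no separate check of words picked there. Those 7 hold 4 of the 6 peaks with AGTGTA, 4 of the 15 with GTGTGC and 3 of the 10 with CGAGTG. At the highest promoter candidates of all protein-coding genes the word AGTGTA was present at 7.16%, while the word GTGTGC was found at 7.76% and the word CGAGTG at 5.15%. TAATTA, the core bound by many homeodomain proteins, was present at 0 of the 7, against 7.24% of candidates, so 0 of 7 is not far below. Of the other words searched, CTGCGT was present at 1 of the 7 (4.96% of candidates) and GAGAGA at 1 (11.9%). TTAATT was present at 0 (21.7%), as were the word GAACCC (4.90%) and the word TATAAA (16.4%). With only 7 peaks, counts of 0 or 1 do not set these words apart from candidates. Around the summit, 4 of the 5 conservative promoter peaks lay in wholly unique sequence, where every 31-base word within 50 bp occurred at a single place in the genome, while at rps-24 74.6% of these words did.

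Candidates below the threshold were common at gene starts, as they were at other genes. Of the 81 members, 72 (88.9%) had at least 1 candidate in the promoter window, against 78.8% of all genes. The median of the highest signal was 31.5 for these 72 members, with an interquartile range of 24.3 to 43.2, and 27.4 for the other genes with a candidate (20.5 to 35.3). At 10 members (12.3%) the signal exceeded 49.8, the 95th percentile of the other genes, against 3.98% of all genes, and at 7 it exceeded 63.4, the 99th percentile, against 0.821%. The highest candidate lay a median of 330.5 bp upstream of the start, and at or past the start in 19 of the 72 members (26.4%), against 21.6% of all genes with a candidate. The 7 above the 99th percentile were the 5 with a listed peak together with rpl-35 and rpl-20, and the 3 after them were rpl-1 (55.0), rps-26 (54.7) and rps-7 (54.5). The 12 highest also held rpl-7A (49.0) and rpl-39 (48.8). The list also gives a signal for each library in 2 columns that do not name the replicate. At the 5 listed promoter peaks the first column equals the own signal of replicate 1 and the second that of replicate 2. At the highest promoter candidates the 2 columns had medians of 16.4 and 15.997 at members, against 14.9 and 12.8 at other genes. The columns differed by more than 2 times at 19 of the 72 members.

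At the low end, 9 members had no candidate in the promoter window: rpl-11.2, rpl-13, rpl-17, rpl-26, rpl-37, rps-6, rps-17, rps-25 and rps-30. The 4 lowest signals were 2.59 at rpl-34, 12.4 at rpl-18, 12.7 at rpl-24.1 and 12.8 at rps-21. The candidate of rpl-34 lay 795 bp upstream in an exon of ppm-1.H, and its joint signal was far below that of the next lowest member. Its signals in the 2 library columns were not lower, with 11.3 and 4.61, against 7.16 and 4.57 at rps-21. Worm genes stand close together, and the 72 members with a promoter candidate held 71 distinct highest ones. At 45 of the 72 members the highest one also lay in the promoter window of another gene. The same share over all genes is not given here. Among these shared candidates were those of rpl-15 and rpl-20 given above, and that of rps-26, which was closer to the start of tmem-107. The divergent pair rpl-36 and rps-14 shared the same candidate, with a signal of 33.6. For such candidates the gene they belong to cannot be told from position alone.

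Large-subunit and small-subunit genes overlapped widely in signal at gene starts. Of the 50 large-subunit genes 3 (6%) had a listed peak in the promoter window, and of the 31 small-subunit genes 2 (6.45%). The median highest signal was 32.5 for 45 large-subunit genes, with an interquartile range of 24.7 to 44.6, and 29.0 for 27 small-subunit genes (23.6 to 42.1). The quartile ranges overlapped over most of their length, and the difference of the medians was not tested. The order of the medians turned in promoter windows of 500 bp before to 100 bp after a start (28.0 large, 29.0 small) and of 2000 bp before to 500 bp after (38.7 and 42.9), and in replicate 1 alone (19.9 and 20.6).

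Among members whose names differ only after the point, rpl-11 had a promoter candidate at 1 gene only. The pairs were formed by name, and likeness of their sequences was not tested. For rpl-11.1 the highest signal was 29.6, while rpl-11.2 on chromosome X had no candidate at the promoter, in the gene body or downstream. The genes named rpl-24 had 12.7 (rpl-24.1) and 14.1 (rpl-24.2), and those named rpl-25 had 33.5 (rpl-25.1) and 32.6 (rpl-25.2). For rpl-41 the values were 31.2 (rpl-41.1) and 45.8 (rpl-41.2). The pairs with related names had 44.6 (rpl-7) and 49.0 (rpl-7A), and 33.6 (rpl-36) and 27.4 (rpl-36.A). Past the gene ends, the signals were 42.4 (rpl-24.1) and 44.3 (rpl-24.2), 60.8 (rpl-36) and 50.01 (rpl-36.A), and 24.7 (rpl-7) and 82.0 (rpl-7A). In rpl-25 a downstream candidate was present at rpl-25.2 (39.0) and absent at rpl-25.1. The 2 copies of rpl-41 lie next to each other, and the highest candidate past rpl-41.1 is the promoter candidate of rpl-41.2. How reads that fit both copies were placed is not given in the sources used here.

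Past the gene ends, the highest candidates of ribosomal protein genes had a larger median signal than at gene starts. A candidate lay within 1000 bp past the end of 76 members (93.8%), against 73.7% of all genes. The median highest signal was 48.2 for these 76 members, with an interquartile range of 38.6 to 60.6, and 26.2 for the other genes (19.3 to 34.4). The lower quartile of the members was thus above the upper quartile of the other genes. At 36 members (44.4%) the signal exceeded 49.96, the 95th percentile of the other genes, against 3.85% of all genes, and at 13 it exceeded the 99th percentile of 71.5, against 0.801%.

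The position past the end was narrow. The highest downstream candidate lay within 300 bp of the end at 57 of the 76 members (75%), against 31% of all genes with a downstream candidate. Per 100 genes there were 45.7 candidates between 100 and 199 bp past the end at members, against 12.3 at the other genes. In the last 100 bp before the end there were 6.17 at members and 8.13 at the other genes. Between 300 and 399 bp past the end there were 6.17 at members and 11.5 at the other genes. All 17 listed peaks lay between 8 and 297 bp past the end, with a median of 171 bp. Within 300 bp of the end 0.776% of all genes had a listed peak, and members made up 11.0% of those 155 genes. The other genes had a smaller rise at the same place, with 0.347 listed peaks per 100 genes between 100 and 199 bp past the end, against 8.64 at members.

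**Figure D2:**
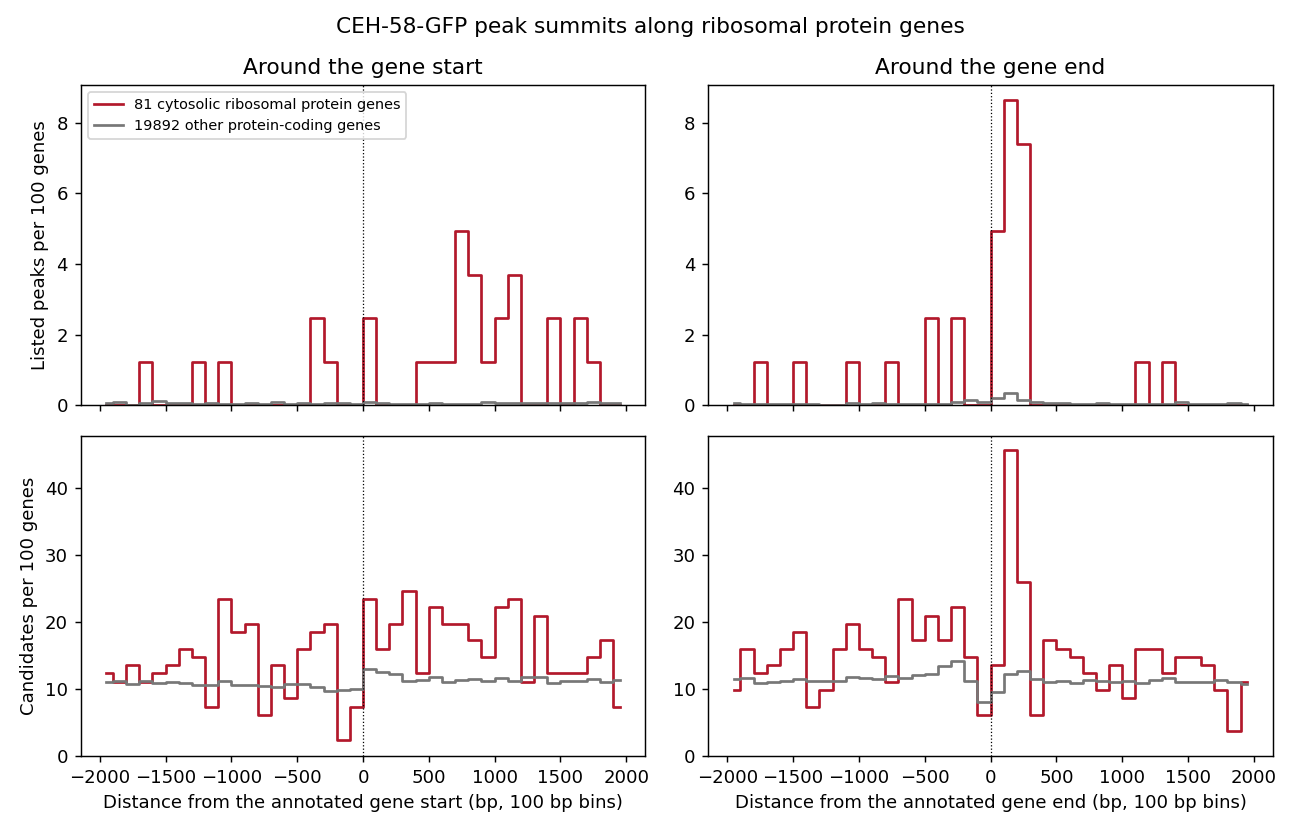
Summits of listed peaks (top) and of candidates (bottom) per 100 genes in bins of 100 bp, around annotated gene starts (left) and ends (right), for the 81 cytosolic ribosomal protein genes (red) and 19892 other protein-coding genes (grey); transcription runs from left to right. The members rise to 45.7 candidates per 100 genes between 100 and 199 bp past the end, where the other genes have 12.3.

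The candidate past the end was also the higher of the pair in most members. In 55 of the 69 members with a candidate on both sides (79.7%) the downstream signal exceeded the promoter signal. The same was so for 46.7% of 12604 other genes. Among the exceptions were rpl-3, with 40.6 downstream and 146.1 in the promoter window, and rpl-15, with 55.3 downstream and 97.1 in the promoter window.

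**Figure D3:**
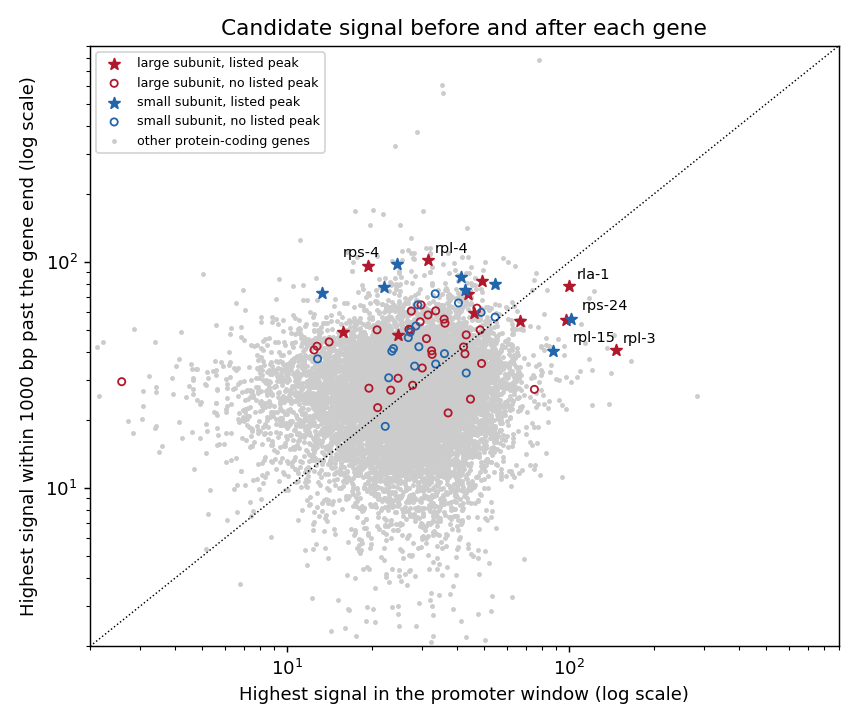
Highest candidate signal in the promoter window (x axis, log scale) and within 1000 bp past the gene end (y axis, log scale) for each gene with both, in large-subunit genes (red), small-subunit genes (blue) and other protein-coding genes (grey); stars mark members with a listed peak in either window, and the dotted line marks equal signals. Of the 69 members shown, 55 lie above the line.

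The 17 listed peaks past gene ends belonged to 10 large-subunit (20% of 50) and 7 small-subunit genes (22.6% of 31). The median highest downstream signal was 47.6 for the large and 50.5 for the small subunit, and this difference was not tested. The order was the same in replicate 1 alone (27.3 and 33.4) and turned in replicate 2 alone (23.4 and 22.7). Signals of the 17 ran from 29.4 to 102.2, with a median of 75.2, close to the 72.4 of all listed peaks. In each replicate's own list all 17 overlapped a candidate by at least 1 bp. The summit of an own candidate lay inside the listed peak at 16 of 17 in each replicate, the exceptions being rps-19 in replicate 1 and rpl-10 in replicate 2. Own signals ran from 29.0 to 72.4 with a median of 44.1 in replicate 1, and from 24.0 to 56.7 with a median of 32.8 in replicate 2. Replicate 1 was the higher at 12 peaks and replicate 2 at 5, so the ranges of the replicates overlapped.

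The highest of them was at rpl-4, which encodes a protein that lines the peptide exit tunnel. Its summit lay 152 bp past the end (chrI:4645392-4645627), in an exon of the convergent gene lmd-2, with a signal of 102.2, and with 72.4 and 33.8 in replicates 1 and 2. For rps-4, a small-subunit gene, the summit lay 176 bp past the end (chrIV:7083402-7083637) with 97.5, and with 44.1 and 56.7. For rpl-29, a large-subunit gene, it lay 201 bp past the end with 95.5, and with 64.2 and 24.0. Replicate 1 was thus more than 2 times replicate 2 at rpl-4 and rpl-29, and below it at rps-4.

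At 3 members the peak stood far from the next gene, which in all such gaps means the next protein-coding gene. For rps-6, whose product is phosphorylated by S6 kinase in many animals, the summit lay 85 bp past the end in a gap of 3995 bp, with 87.4, and with 48.1 and 31.5 in replicates 1 and 2. For rps-27, a small-subunit gene, it lay 156 bp past the end with 19561 bp to the next gene, with 75.2, and with 46.7 and 26.9. For rpl-21, a large-subunit gene, it lay 118 bp past the end with 8318 bp to the next gene, with 72.4, and with 44.2 and 32.8. No annotated gene lay at these 3 summits, and replicate 1 was the higher in each.

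For rpl-7A, a large-subunit gene, the summit lay 160 bp past the end in a gap of 262 bp to the convergent tald-1, and 103 bp past the end of tald-1, which is closer. The signal was 82.0, with 44.9 and 49.2 in replicates 1 and 2. For rps-15, a small-subunit gene, it lay 171 bp past the end in a gap of 592 bp, with 72.5, and with 40.0 and 26.6. The listed peak of rps-19, whose human counterpart is mutated in Diamond-Blackfan anaemia, lay 68 bp past the end with a signal of 29.4, the lowest of the 17. A higher candidate, of 85.5 but with an IDR score of 425, lay 279 bp past the same end. The 2 peaks overlap, and the signal of replicate 1 given to the listed one (70.04) belongs to a candidate that overlaps it by 24 bp and has its summit at the other. The listed peak of rps-19 also lay 257 bp past the end of the convergent T05F1.2.

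The sequence at 3 of these summits in gaps is printed to set beside the upstream ones, with the same length, direction and source.
rpl-7A: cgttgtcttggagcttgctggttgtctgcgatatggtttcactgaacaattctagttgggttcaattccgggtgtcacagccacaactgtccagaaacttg
rps-27: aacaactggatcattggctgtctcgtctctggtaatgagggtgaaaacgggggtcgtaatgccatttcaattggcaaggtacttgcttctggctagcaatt
rpl-21: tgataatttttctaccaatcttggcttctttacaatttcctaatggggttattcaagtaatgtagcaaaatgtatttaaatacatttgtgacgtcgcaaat
These are chrIV:4388933-4389033, chrV:103188-103288 and chrIII:8129383-8129483, all on the minus strand, and hold none of the 3 words in capitals. Over all 17 downstream peaks, AGTGTA and GTGTGC were present at 0 within 100 bp of the summit. Their shares were 7.06% and 6.87% of candidates, and 5.59% and 11.6% of listed peaks, so 0 of 17 is not far below. CGAGTG was present at 3 (17.6%), above its 4.60% of candidates and 10.1% of listed peaks. TAATTA was present at 1 of the 17, against 4.55% of listed peaks and 7.24% of candidates. TATAAA was present at 4 (16.4% of candidates), TTAATT at 3 (21.7%), GAACCC at 2 (4.90%), GAGAGA at 1 (11.9%) and CTGCGT at 0 (4.96%). The median G and C content within 50 bp of the summit was 42.6% for the 17, against 56.4% for the 5 promoter peaks. It was 50.5% for the 7 promoter peaks in the conservative or optimal list. All listed peaks had 48.5% and all candidates 39.6%. Sequence was wholly unique at 15 of the 17, with 69.0% of 31-base words at a single place for rpl-7A and 57.7% for rpl-21.

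**Figure D4:**
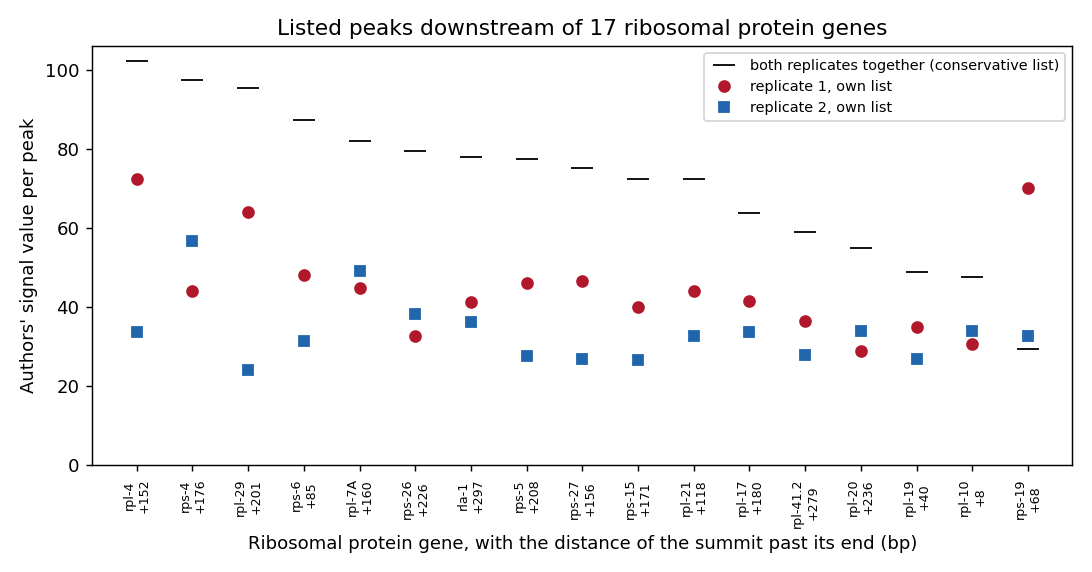
Signal of the listed peak past the end of 17 ribosomal protein genes, from the conservative list (black bars), in the own candidate list of replicate 1 (red circles) and in that of replicate 2 (blue squares); numbers under the names are bp past the gene end. Replicate 1 is the higher at 12 of 17, and at rps-19, where the listed peak has a signal of 29.4, the value of replicate 1 comes from the neighbouring candidate.

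Many of the other downstream peaks could belong to the neighbour by position. Of the 17, 7 also lay in the promoter window of the next gene, which ran in the same direction, at rps-4, rpl-29, rps-5, rpl-17, rpl-20, rpl-19 and rpl-10. At rpl-29 the summit was 85 bp past the start of thoc-7, at rps-5 69 bp past that of pigk-1, and at rpl-17 96 bp past that of Y48G8AL.7. At rpl-19 and rpl-10 it lay before the neighbour's start, by 78 bp for C09D4.4 and by 83 bp for F10B5.2. The signals were 77.6 at rps-5, 63.8 at rpl-17, 55.0 at rpl-20, 48.8 at rpl-19 and 47.7 at rpl-10. Without these 7, 10 members kept a listed downstream peak, against 0.826% of all genes counted in the same way. In addition, 4 of the 17 also lay within 1000 bp past the end of another gene, those of rpl-7A, rla-1, rps-15 and rps-19, and 1 of them, at rpl-7A, was closer to that end.

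Convergent neighbours were lmd-2 past rpl-4 and 3 more that held the summit. It lay in an exon of gpr-158 past rps-26 (79.6), of arl-13 past rla-1 (77.9) and of zig-7 past rpl-41.2 (59.1). In all, 9 of the 17 lay inside another gene, 8 of them in an exon. The same share for listed peaks past other genes is not given here. The next protein-coding gene was tandem for 10 of the 17 and convergent for 7. Over all 81 members it was tandem for 44 and convergent for 37. No downstream listed peak lay within 200 bp of a tRNA, snoRNA, snRNA or rRNA gene, and the nearest such gene was 352 bp away, at rps-4. Only rla-1 had a listed peak both in the promoter window and past the end.

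In the optimal list 23 members had a peak past the end, against 1.65% of all genes, and 14 of the 17 peaks overlapped a peak in it, 13 of them with its summit inside. The 9 added members were rps-12, rps-20, rps-23, rpl-12, rpl-32, rpl-36, rpl-38, rpl-43 and rla-2. The own lists were shorter and gave fewer. Replicate 1 had a thresholded downstream peak at 9 members, against 0.456% of all genes, and replicate 2 had such a peak at rps-4 and rpl-7A, against 0.23%. Of the 17 peaks, 6 overlapped a peak in the list of replicate 1, 2 did so in both and 11 in neither. By summits the count for replicate 1 was 5, without rps-19. In the own candidate list of replicate 1, 72 members had a downstream candidate with a median highest signal of 29.2, against 18.1 for other genes. In that of replicate 2, 70 members had a downstream candidate, with a median of 23.1, against 15.3 for other genes.

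Just outside the conservative threshold past gene ends were rps-20 (IDR score 814), rpl-24.2 (806) and rpl-32 (800). Just inside it were rpl-20 (847) and rpl-19 (851). No candidate lay past the end of 5 members, rpl-1, rpl-11.2, rpl-25.1, rpl-37 and rps-18. Of these, rpl-11.2 and rpl-37 had no candidate at the promoter or in the gene body either.

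Inside the genes, candidates were also denser than in other genes. Members had 1.85 candidates per kb with a median signal of 30.3, against 1.13 per kb and 22.4 in other genes. Ribosomal protein genes were short, with a median length of 754 bp against 2034 bp. Other genes no longer than 1163 bp, the 90th percentile of the members' lengths, had 1.30 per kb and a median signal of 23.4. The 5 members with a listed peak in the body were rla-1 and rps-16, with the exonic peaks given above, and rpl-3, rps-3 and rpl-7A. The second peak of rpl-3 had a signal of 75.6 and lay 245 bp before the gene end, with 62.0 and 26.2 in replicates 1 and 2. This peak also lay 248 bp past the end of the convergent gene tir-1. The body signals of rps-3, which encodes a protein at the mRNA entry channel, and of rpl-7A were 67.7 and 55.2.

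Genes of snoRNAs lay inside 13 members and within 1000 bp of 5 more. The 13 hosts were rpl-2, rpl-4, rpl-6, rpl-7, rpl-7A, rpl-15, rpl-24.1, rpl-26, rps-4, rps-12, rps-13, rps-23 and rps-29, and the 5 near ones were rla-0, rla-1, rpl-12, rps-10 and rps-26. Of these 18 genes, 2 had a listed peak in the promoter window, rla-1 and rpl-15, against 3 of the other 63 members. The median highest promoter signal was 40.5 for the 17 with a candidate, against 29.8 for 55 members away from snoRNA genes. In the own candidates of each replicate the order turned, with 20.3 at and 20.4 away from snoRNA genes in replicate 1, and 16.6 at and 17.7 away in replicate 2. At 3 of the 18 the highest promoter summit lay near the snoRNA gene itself. That of rps-10 (43.1) lay inside D1007.20, a snoRNA gene in an intron of the neighbouring rpl-24.1, and those of rps-26 (54.7) and rpl-7 (44.6) lay within 200 bp of a snoRNA gene. Without candidates within 200 bp of an RNA gene, the highest signal was 12.7 at rps-10, 16.3 at rps-26 and 15.4 at rpl-7. The median of the 18 genes was then 30.1.

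Past the gene end, 5 of the 18 had a listed peak (27.8%), against 12 of the 63 away from snoRNA genes (19.05%). The 5 were rpl-4, rps-4, rpl-7A, rps-26 and rla-1. The median downstream signal was 57.6 for the 18 and 46.9 for 58 members away from snoRNA genes. In the own candidates it was 34.2 at and 28.9 away in replicate 1, and 23.4 at and 22.8 away in replicate 2. Replicate 1 had a thresholded downstream peak at 6 of the 18. Of these, rpl-4, rps-12, rps-23 and rpl-12 had the higher own signal in replicate 1, and rps-4 and rpl-7A in replicate 2. The difference between members at and away from snoRNA genes was not tested.

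Other gene groups of the ribosome and its assembly had 0 or 1 gene with a listed peak in each place. The shares over all genes were 0.801% in the promoter window, 1.29% in the body and 1.17% past the end. Such counts do not set groups of this size apart from all genes. Of 70 mitochondrial ribosomal protein genes, 0 had a listed peak in the promoter window, in the body or past the end, and their median highest signals were 27.3 in the promoter window and 28.8 past the end. The highest were mrps-2 (61.0) in the promoter window and mrpl-40 (63.3) past the end. In the optimal list 2 of the 70 had a promoter peak (2.86%, against 1.18% of all genes). A body peak was present at 1 and a downstream peak at 1 (1.43% each, against 2.04% and 1.65% of all genes). Of 29 genes of ribosome assembly and snoRNP proteins, 1 had a listed peak in the promoter window, pro-1 (65.9), 1 in the body, again pro-1 (62.8), and 1 past the end, fib-1, which encodes fibrillarin, the methyltransferase of box C/D snoRNPs. The peak past fib-1 is the same as the exonic peak of rps-16 (87.5). Their medians were 32.3 in the promoter window and 28.9 past the end. The 10 subunit genes of RNA polymerases I and III had 0 listed peaks, with rpac-19 (51.6) the highest in the promoter window and rpoa-12 (62.2) past the end. The 3 genes ubl-1, ubq-2 and rack-1, a set of ubiquitin fusion and scaffold proteins, also had 0. Of them ubl-1 (30.0) was the highest in the promoter window and ubq-2 (46.6) past the end. The members were set by gene name alone, so these 3 genes are no contrast to cytosolic ribosomal proteins. The ceh-58 gene itself had 0 candidates in its promoter window, body and downstream window.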

How the data were processed

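Peak lists of anti-GFP ChIP-seq from 2 replicates were deposited by the authors on assembly ce11, per the labels. For each peak the authors deposited a signal, an IDR score and a −log10 q-value, and the q-value was not used. The sources used here name no aligner and no peak caller. Read depth is unknown. Peaks were placed by their summits on Ensembl release 115 gene models (WBcel235); all peaks fell within the lengths of the 6 nuclear chromosomes. A promoter window ran from 1000 bp before to 200 bp after any transcript start, and a downstream window covered 1000 bp past the gene end. The highest signal per gene and window was taken. Own signals of a replicate are its highest overlapping candidate (at least 1 bp). The 2 replicate columns of the common list do not name their replicates.

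The members, the related lists, the motifs and the rule for naming genes were chosen with earlier results of these data known. The rule takes members with a thresholded promoter peak, the 12 highest and 4 lowest, and those without a candidate. It also takes those at snoRNA genes, members paired with these by name, and the top gene of each related list. Genes named for downstream or body peaks were chosen after their values were seen. Placement was tested on simulated summits. Python 3.11.15, numpy 2.4.6, pandas 2.3.3 and matplotlib 3.10.9 were used.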

Additional observations from a re-analysis of the deposited data

How the results depend on the processing

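No paired analysis was possible because both replicates belong to 1 group. In every planned setting that gave a value, the median promoter signal of ribosomal protein genes was above that of other genes, as was the downstream median in every added setting. In promoter windows of 500 bp before to 100 bp after a start, the share of other genes with a listed peak was 0.437%, and median signals were 28.7 for members, 28.0 for large-subunit and 29.0 for small-subunit members, 32.5 for those at snoRNA genes and 24.4 for other genes, with a median distance of -254 bp. With 2000 bp before to 500 bp after, a listed peak was present at 10 members (6 large-subunit, 4 small-subunit, 4 at snoRNA genes) and 1.56% of other genes. Medians were then 41.4 for members, 38.7 and 42.9 for the large and small subunit, 43.7 at snoRNA genes and 32.4 for other genes, at -204.5 bp. Such a window covers much of a short gene. Overlap in place of the summit gave 34.7, 35.1 and 34.4 for members and the large and small subunit, 43.1 at snoRNA genes and -277 bp. Canonical starts gave -359 bp. The second ranked list with the optimal list gave 5 large-subunit members, 36.9 at snoRNA genes and -378 bp, and leaving out candidates near RNA genes gave 30.1 at snoRNA genes.

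At an IDR score of 1000, 0.362% of other genes kept a promoter peak, and 8 members (5 large-subunit, 3 small-subunit) and 0.631% of all genes a downstream peak. At 540 or more, promoter counts were 12 members (8 large-subunit, 4 small-subunit, 4 at snoRNA genes) and 3.06% of other genes. Downstream counts were 34 members (20 and 14) and 3.59% of all genes. Medians were not recomputed at these 2 thresholds. All alternatives for the downstream window were chosen after seeing the data. Downstream windows of 300, 500 and 2000 bp gave medians of 23.3, 24.1 and 30.3 for other genes, and 300 bp gave 0.776% of all genes. Without peaks in another gene's promoter window, 10 members kept a downstream peak.

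With each replicate alone the lists are shorter. Promoter counts ran from 2 to 4 members, 2 to 3 for the large subunit, 0 to 1 for the small, 1 to 1 at snoRNA genes, and 0.111% to 0.246% of other genes. Promoter medians ran from 17.6 to 20.4 for members, 17.8 to 19.9 and 16.3 to 20.6 for the large and small subunit, 16.6 to 20.3 at snoRNA genes and 15.7 to 18.5 for other genes, at -297 to -281 bp. Downstream counts ran from 2 to 9 members (1 to 4 large-subunit, 1 to 5 small-subunit) and 0.23% to 0.456% of all genes, with medians of 23.1 to 29.2 for members and 15.3 to 18.1 for other genes. Among recomputed promoter signals of single named genes, 140 moved by less than the spread between replicates or not at all, and 71 moved by more or had no such spread. The cause of these moves was not tested. Unknown depth, 2 replicates and unused controls limit every value.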

Other observations

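Outside the ribosomal protein genes, 138 other protein-coding genes had a listed peak within 300 bp past their end, and at 113 of them the summit of the highest was more than 200 bp from a tRNA, snoRNA, snRNA or rRNA gene. These genes were looked at after their values had been seen, and the 10 with the highest signal among the 113 are named. They were K08D12.3 (137.8), csr-1 (112.6), pqn-21 (110.9), icd-2 (109.9), Y62F5A.9 (109.5), klp-7 (105.3), prg-1 (104.0), F09E5.7 (103.5), F57A10.2 (103.2) and cey-2 (101.8). Both csr-1 and prg-1 encode Argonaute proteins of the germline, klp-7 a microtubule-depolymerising kinesin, cey-2 a Y-box RNA-binding protein and icd-2 a subunit of the nascent polypeptide-associated complex. The summits lay 42 bp past csr-1, 70 bp past prg-1, 72 bp past klp-7 and 175 bp past cey-2.

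Ribosomal protein genes and their neighbours shared some peaks. The exonic peak of rla-1 lay 180 bp past the end of Y37E3.8, and that of rps-16 lay 168 bp past the end of fib-1. Counted from the other gene, both are peaks past a gene end. The downstream peaks of rpl-7A and rps-19 lay 103 bp past the end of tald-1 and 257 bp past that of T05F1.2, and both of these genes are among the 138. So is tir-1, as the body peak of rpl-3 lay 248 bp past its end. Which gene such a peak belongs to was not tested.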
